A study of Homo sapiens with 12 samples.

Results

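The genes of 10 selenoproteins were followed in human induced neurons: SELENOP, SELENOW, SELENOT, SELENOK, SELENOF, SELENOM, GPX1, GPX4, TXNRD1 and TXNRD2. They were found by gene name in the deposited translational efficiency table and joined by transcript identifier to the deposited counts, where all 10 were present among 19972 transcripts, each gene as 1 transcript. The list was chosen by membership of the family, with earlier RNA and footprint log2 changes and deposited efficiencies of these same libraries in view. SELENOP stood there among the largest RNA decreases, so the values of SELENOP are described here without a test. The neurons were made from H1 human embryonic stem cells (H1-hESC), an established line, by overexpressing the transcription factor Ngn2, and they carried either the Nterm/Nterm or the wt/wt genotype at LLPH. LLPH encodes a nuclear protein related to an Aplysia learning-associated factor, and no source used here says what the Nterm allele alters. All 4 groups, Nterm/Nterm RNA-seq, wt/wt RNA-seq, Nterm/Nterm Ribo-seq and wt/wt Ribo-seq, held 3 libraries at day 14 in vitro. All cultures grew without glia and received doxycycline at 2 µg/mL and cytosine arabinoside at 4 µM in the medium given on days 5 and 10, and all were harvested in cycloheximide at 100 µg/mL. Whether each genotype is 1 clone, and whether replicates are separate cultures, is not given, so each p-value rests on a spread between libraries that may be technical.

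Selenoproteins contain selenocysteine, an amino acid inserted at a UGA codon that would otherwise stop translation. The ribosome reads that UGA through with the help of a stem-loop in the 3′ untranslated region, the SECIS element, the protein SECISBP2 that binds it, the elongation factor EEFSEC and a dedicated tRNA. When selenium is short, some selenoprotein mRNAs are spared and others, of which GPX1 and SELENOW are the usual examples, are translated less and decay. In the brain, SELENOP carries selenium to neurons through the receptor LRP8, and neurons depend on GPX4, which removes lipid peroxides. Ribo-seq counts ribosome footprints, the stretches of mRNA covered by ribosomes. The deposited values are 1 count per transcript and library, so they cannot place footprints before or after a UGA.

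The promoters of SELENOP, the gene with the large mRNA difference, and of TXNRD1, the gene with the called increase, are shown first because the results turn on these mRNAs. Both are RefSeq sequences of GRCh38.p14, 250 bases ending just before an annotated start, 5′ to 3′ on the gene's strand, with motif matches in capitals. The motifs searched on both strands were TATAAA, a common core promoter element, and TGACNNNGC, a core of the antioxidant response element that NFE2L2 binds. The SELENOP window lies on the minus strand at chr5:42811893-42812142, and the TXNRD1 window, 1 of 2 annotated, on the plus strand at chr12:104215529-104215778.
SELENOP: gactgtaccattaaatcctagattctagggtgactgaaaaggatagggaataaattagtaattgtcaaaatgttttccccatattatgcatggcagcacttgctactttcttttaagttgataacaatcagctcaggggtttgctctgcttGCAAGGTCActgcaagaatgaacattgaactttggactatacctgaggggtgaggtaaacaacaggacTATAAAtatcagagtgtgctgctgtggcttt
TXNRD1: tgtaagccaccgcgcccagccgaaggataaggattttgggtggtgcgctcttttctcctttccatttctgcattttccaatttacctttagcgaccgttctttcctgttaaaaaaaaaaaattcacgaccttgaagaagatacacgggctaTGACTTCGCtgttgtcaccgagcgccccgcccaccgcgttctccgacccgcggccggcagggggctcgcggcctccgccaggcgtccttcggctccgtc
In SELENOP the capitals mark TATAAA, beginning 31 bases before the start, and TGACNNNGC on the opposite strand, which is printed as its reverse complement GCAAGGTCA and begins 99 bases before the start. In TXNRD1 they mark TGACTTCGC on the gene's strand, 99 bases before the start. TATAAA occurred in 10.7% and TGACNNNGC in 10.9% of 35116 RefSeq promoter windows of the same length. Among the 9 genes with a window, SELENOM having none in the table, TATAAA occurred in SELENOP and TXNRD2, and TGACNNNGC in SELENOP, TXNRD1 and SELENOK. These are genes with a match in any of their windows, 15 in all, so they do not compare directly with the shares per window. The TATAAA of TXNRD2 was on the opposite strand, 120 bases before the start, in 1 of its 3 windows. The SELENOP window had a GC content of 39.6%, against 52.4% to 80.4% in the 14 windows of the other 8 genes and a median of 58.0% over all windows. A match describes letters and shows no binding.

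Totals ran from 18944427 to 25089790 counts in RNA libraries and from 12652833 to 16356419 in footprint libraries, and all 10 genes passed the filter on low counts in each fit. LLPH itself had 611, 603 and 630 RNA counts in Nterm/Nterm libraries, against 676, 627 and 687 in wt/wt (log2 change 0.14 ± 0.06 SE, adjusted p = 0.135 by edgeR). Its footprint counts were 39, 22 and 36 in Nterm/Nterm, against 88, 135 and 98 in wt/wt (log2 change -1.60 ± 0.19, adjusted p = 1.77e-05). Genotypes follow the sample titles. Only the genotype tag of the 6 Ribo-seq samples names the opposite genotype, and with the tag every footprint direction given here would be the opposite.

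The RNA and footprint comparisons asked how the genotype at LLPH relates to the level of each selenoprotein mRNA and to the ribosomes on it. SELENOP was far less abundant in Nterm/Nterm than in wt/wt neurons, at 0.323 times the wt/wt level in RNA and 0.275 times in footprints. Among the other 9 genes, TXNRD1 mRNA rose by a small amount and no footprint level passed the test. GPX1 and GPX4 mRNA were called lower only in the fit that pairs RNA libraries by replicate number. Differences are log2 changes of Nterm/Nterm minus wt/wt fitted by edgeR's quasi-likelihood test over all transcripts, and a call is an adjusted p under 0.05. Levels are counts scaled to library size (CPM), given as mean ± SD over 3 libraries.

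SELENOP, the secreted carrier of selenium, had 76, 124 and 76 RNA counts in Nterm/Nterm libraries, against 362, 341 and 328 in wt/wt libraries. The highest Nterm/Nterm library thus held fewer counts than the lowest wt/wt library, and this held after scaling to library size as well. The RNA level was 4.64 ± 1.66 CPM in Nterm/Nterm and 14.4 ± 1.27 CPM in wt/wt neurons, which is 67.7% lower. Its footprint counts were 58, 60 and 55 in Nterm/Nterm, against 218, 281 and 177 in wt/wt. These too did not overlap, at 4.26 ± 0.551 CPM in Nterm/Nterm and 15.5 ± 2.45 CPM in wt/wt neurons, which is 72.5% lower. The log2 changes were -1.65 ± 0.18 in RNA and -1.84 ± 0.15 in footprints (SE). A fitted decrease of 2-fold or more was seen in 1.04% of 14659 transcripts in RNA and in 1.00% of 13566 in footprints. Footprints relative to RNA differed by -0.19 ± 0.26 on the log2 scale, with a 95% interval of -0.74 to 0.35. That difference was 0.12 without Nterm/Nterm RNA replicate 2, the library with 124 counts.

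**Figure D1:**
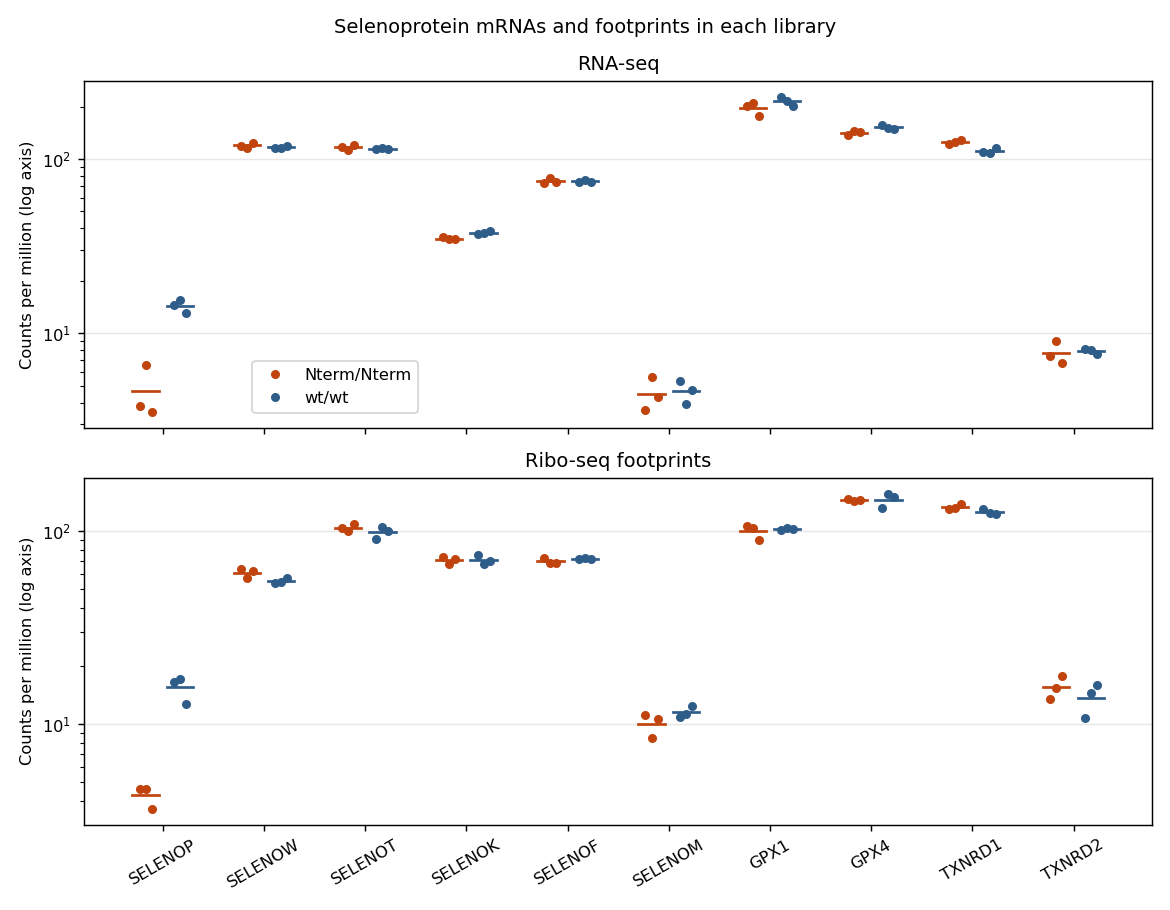
CPM on a log axis for the 10 selenoprotein genes in each RNA-seq library (top) and Ribo-seq library (bottom). Points are libraries and bars are means of 3. SELENOP alone shows a wide gap, at 4.64 CPM in Nterm/Nterm and 14.4 CPM in wt/wt RNA.

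Some marker genes of other cell types also differed between the genotypes, and most of those called were lower in Nterm/Nterm. The 7 named mesenchymal markers of 14 listed, such as the collagen COL1A1, summed to 2855 to 3782 CPM in Nterm/Nterm and 4280 to 5299 CPM in wt/wt RNA libraries, with 5 called lower and 1 higher. In footprint libraries they summed to 4028 to 5336 CPM in Nterm/Nterm and 5635 to 6623 CPM in wt/wt, with 4 called lower. The marker called higher in RNA was THY1. COL3A1, COL6A3, DCN, LUM, POSTN, PDGFRB and TWIST1, on the same list, have no name in the table. Neural progenitor markers summed to 926.0 to 1092 CPM in Nterm/Nterm and 1196 to 1291 CPM in wt/wt RNA. In footprint libraries their sums overlapped, at 1353 to 1582 CPM in Nterm/Nterm and 1462 to 1722 CPM in wt/wt. Of the 8 named, 6 were called lower in RNA and 5 in footprints, and PAX6, HES5 and FABP7 have no name. The 12 neuronal markers summed to 17291 to 18567 CPM in Nterm/Nterm and 14995 to 16024 CPM in wt/wt RNA. In RNA 8 of them were called higher, and in footprints 3. Of astrocyte markers, 2 of 4 named were called lower in RNA and 3 in footprints, and the defining GFAP, AQP4, ALDH1L1 and S100B have no name. The astrocyte marker SLC1A2 went the other way, with log2 changes of 0.12 in RNA and 0.08 in footprints, not called in these fits. Of pluripotency markers, 2 of 4 named were called lower in RNA and 1 in footprints, while POU5F1 and NANOG have no name. Only TF of 8 listed hepatocyte markers, the type that secretes most SELENOP in the body, was named, and it was not called. None of the named markers was at 0. Over all transcripts, 7.25% were called higher and 10.6% lower in RNA, and 4.36% higher and 8.91% lower in footprints. The part of these markers in the SELENOP difference was not tested, and in such bulk samples fewer cells of a type and less RNA per cell cannot be told apart.

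Both SELENOP receptors on the list of selenium supply and selenocysteine synthesis were called, in opposite directions. LRP8, also called apolipoprotein E receptor 2, takes up SELENOP in brain. Its mRNA rose to 67.9 ± 4.18 CPM in Nterm/Nterm, against 52.2 ± 1.39 CPM in wt/wt neurons (log2 change 0.38 ± 0.06, adjusted p = 0.00151). Its footprints rose to 31.0 ± 3.30 CPM in Nterm/Nterm against 26.0 ± 1.54 CPM in wt/wt (0.28 ± 0.09, adjusted p = 0.0468). That footprint call was lost with DESeq2 and limma-voom (adjusted p = 0.0791 and 0.0501) and without any 1 of 4 libraries, Nterm/Nterm Ribo replicates 2 and 3 and wt/wt Ribo replicates 1 and 2 (adjusted p up to 0.227). LRP2, or megalin, takes up SELENOP in the kidney. It had 124, 125 and 148 RNA counts in Nterm/Nterm, against 348, 264 and 341 in wt/wt, and fell by 1.01 ± 0.11 on the log2 scale (adjusted p = 0.000226). Its footprints fell likewise, to 16.6 ± 3.83 CPM in Nterm/Nterm against 38.0 ± 3.02 CPM in wt/wt (-1.16 ± 0.12, adjusted p = 3.93e-06).

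Of the 16 tested genes of that supply list, 1 rose and 2 fell in RNA, and 1 rose and 1 fell in footprints, with median log2 changes of 0.03 and 0.02, against -0.00 and 0.01 over all transcripts. These counts are near the general share, since 17.9% of all transcripts were called in RNA and 13.3% in footprints. Besides the receptors, only RPL30, a ribosomal protein that also binds SECIS elements, was called, at -0.17 ± 0.05 in RNA (adjusted p = 0.0377). Its footprint change was -0.02 ± 0.07 and was not called. RPL30 lost its RNA call without any 1 of 5 libraries, all but Nterm/Nterm RNA replicate 1 (adjusted p up to 0.158), and it has many pseudogenes, so its counts are uncertain. SECISBP2, EEFSEC, SEPSECS and the other tested synthesis and recoding genes passed in neither assay. With the replicate block CELF1, an RNA-binding protein, was also called higher in RNA, so that 2 genes of the list rose and 2 fell, against 14.3% and 16.4% of all transcripts.

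The glutathione peroxidases reduce peroxides with glutathione, GPX1 in the cytosol and mitochondria and GPX4 on lipids of membranes. GPX4 had RNA levels of 137, 145 and 142 CPM in Nterm/Nterm libraries, against 158, 150 and 148 CPM in wt/wt libraries. The groups did not overlap, but the difference of -0.11 ± 0.04 missed the threshold (adjusted p = 0.109 by edgeR). GPX1 had 202, 210 and 176 CPM in Nterm/Nterm, against 227, 215 and 202 CPM in wt/wt, and these overlapped (-0.14 ± 0.06, adjusted p = 0.155). With the replicate number as a block, which pairs the RNA libraries, the same differences were called, with adjusted p = 0.00275 for GPX1 and 0.0261 for GPX4. Their footprints differed by -0.01 ± 0.07 for GPX1 and 0.02 ± 0.07 for GPX4 on the log2 scale. GPX1 has processed pseudogenes, and no source used here says how reads shared with such copies were treated.

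The thioredoxin reductases return thioredoxin to its reduced form, TXNRD1 in the cytosol and TXNRD2 in mitochondria. TXNRD1 had RNA levels of 123, 124 and 128 CPM in Nterm/Nterm libraries, against 109, 109 and 115 CPM in wt/wt libraries. All 3 Nterm/Nterm libraries were above all 3 wt/wt libraries, and the rise of 0.17 ± 0.04 was called (95% interval 0.07 to 0.26, adjusted p = 0.0221 by edgeR). Leaving out Nterm/Nterm RNA replicate 3, wt/wt RNA replicate 1 or wt/wt RNA replicate 2 ended the call (adjusted p up to 0.115). Its footprints were 130, 132 and 139 CPM in Nterm/Nterm, against 130, 124 and 123 CPM in wt/wt (0.12 ± 0.06, adjusted p = 0.254). TXNRD2, at 7.72 ± 1.14 CPM in Nterm/Nterm and 7.91 ± 0.239 CPM in wt/wt RNA, overlapped between groups (-0.04 ± 0.12). Its footprints were 13.5, 15.3 and 17.8 CPM in Nterm/Nterm and 10.7, 14.5 and 15.9 CPM in wt/wt, also overlapping (0.21 ± 0.13, adjusted p = 0.330).

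Of the selenoproteins of the endoplasmic reticulum, SELENOK takes part in protein palmitoylation with ZDHHC6 and in disposal of misfolded proteins, and SELENOF binds the folding sensors UGGT1 and UGGT2. SELENOM and SELENOT are thioredoxin-like proteins of the same compartment. SELENOK RNA was 35.6, 34.6 and 34.8 CPM in Nterm/Nterm, against 37.2, 37.4 and 38.8 CPM in wt/wt libraries. The groups were apart but close, and the difference was not called (-0.12 ± 0.06, adjusted p = 0.165). SELENOF was level in RNA, at 73.3, 77.8 and 73.6 CPM in Nterm/Nterm and 73.4, 75.9 and 74.0 CPM in wt/wt (0.00 ± 0.05). SELENOT differed by 0.02 ± 0.04. SELENOM, a scarcely counted mRNA at 4.51 ± 0.998 CPM in Nterm/Nterm and 4.67 ± 0.694 CPM in wt/wt, differed by -0.06 ± 0.19. In footprints, the 4 genes had overlapping groups and log2 changes between -0.17 ± 0.13 for SELENOM and 0.11 ± 0.07 for SELENOT.

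SELENOW, a small cytosolic thioredoxin-like protein abundant in muscle and brain, had 119, 116 and 124 CPM in Nterm/Nterm and 116, 115 and 119 CPM in wt/wt RNA (0.03 ± 0.04). Its footprints were 63.3, 56.8 and 61.8 CPM in Nterm/Nterm, against 53.7, 54.7 and 57.2 CPM in wt/wt. The lowest Nterm/Nterm library lay just inside the wt/wt range, and the difference was 0.16 ± 0.07 (adjusted p = 0.142). It was the only footprint level among the 9 genes other than SELENOP with an unadjusted p under 0.05.

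Over those 9 genes, 1 was called in RNA, where 17.9% of all transcripts were, 7.25% higher and 10.6% lower. None was called in footprints, where 13.3% of all transcripts were, 4.36% higher and 8.91% lower. DESeq2 and limma-voom gave the same counts, 1 and 0. In RNA 3 of the 9 had groups that did not overlap, SELENOK, GPX4 and TXNRD1, against 36.8% of all transcripts. In footprints 1 did not, TXNRD1, against 28.9%. The TXNRD1 footprint groups all but touched, the lowest Nterm/Nterm library at 129.615 CPM and the highest wt/wt library at 129.607 CPM. The median log2 change of the 9 was -0.04 in RNA and 0.03 in footprints, against -0.00 and 0.01 over all transcripts. With the replicate block, 3 of the 9 were called in RNA, when 30.7% of all transcripts were. The 95% intervals kept all 9 between -0.47 and 0.34 in RNA, both bounds from SELENOM, and between -0.44 and 0.49 in footprints.

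**Figure D2:**
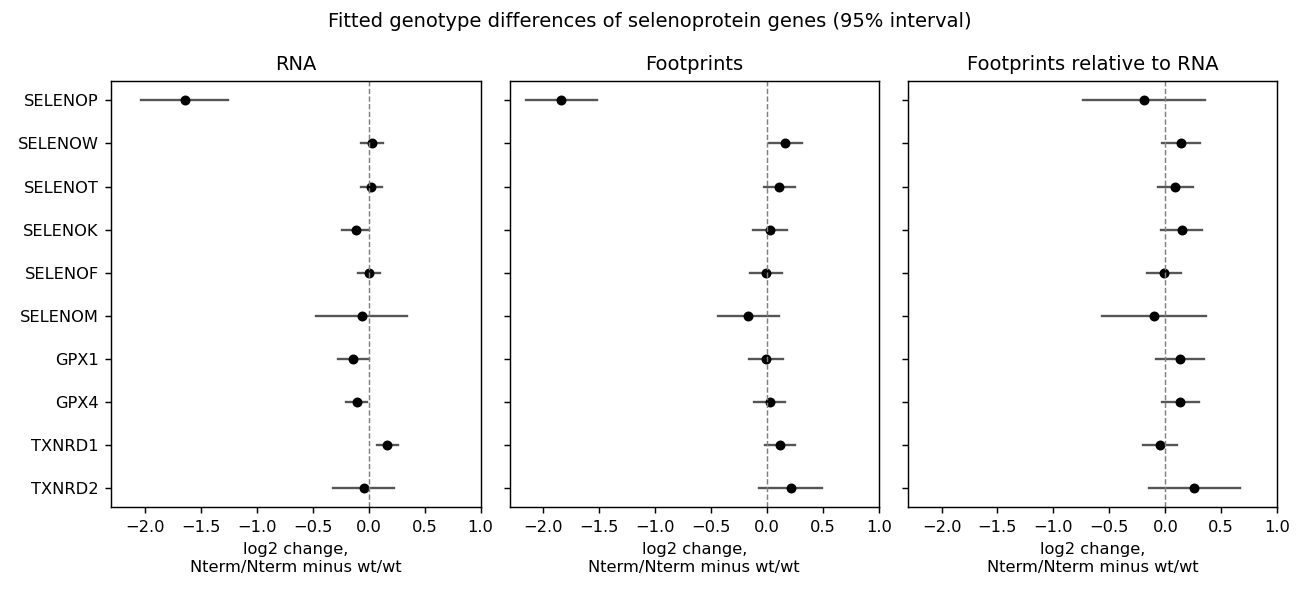
Fitted log2 changes, Nterm/Nterm minus wt/wt, with 95% intervals for the 10 selenoprotein genes in RNA, in footprints and in footprints relative to RNA. SELENOP lies near -1.65 and -1.84 in the first 2 panels. Its intervals are drawn as a description only, since the gene was chosen with its values in view. In the last panel the intervals of the other 9 genes span 0.

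Translational efficiency, footprints set against RNA for the same transcript, was compared in 1 model of 12 libraries whose interaction term asks whether the genotypes differ in it. None of the 9 genes was called by edgeR or limma-voom, and 0 had an unadjusted p under 0.05 by edgeR. DESeq2 gave an adjusted p in efficiency to 740 of the transcripts, and to none of these genes. Calls were rare everywhere, with 0.0203% of 14786 transcripts passing, 0.00676% higher and 0.0135% lower. The log2 changes of efficiency were 0.14 ± 0.08 for SELENOW, 0.15 ± 0.09 for SELENOK, 0.13 ± 0.10 for GPX1, 0.13 ± 0.08 for GPX4 and 0.09 ± 0.07 for SELENOT. They were 0.26 ± 0.20 for TXNRD2, -0.01 ± 0.07 for SELENOF, -0.05 ± 0.07 for TXNRD1 and -0.10 ± 0.22 for SELENOM (SE). The fitted change was positive in 6 of 9 genes with a median of 0.13, against 53.7% of all transcripts and a median of 0.01. The narrowest interval, of TXNRD1, ran from -0.20 to 0.10, and the widest, of SELENOM, from -0.56 to 0.37. The intervals of all 9 genes included 0, and the fit did not tell apart the changes within a gene's own interval. In the authors' deposited table, the ratio of efficiencies, Nterm/Nterm over wt/wt, ran from 0.921 for SELENOP to 1.19 for TXNRD2. The lowest unadjusted p among the 10 in the authors' deposited table was 0.0628, of SELENOW, and 4.67% of its 10932 transcripts were under 0.05.

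Footprints per mRNA, here footprint CPM divided by RNA CPM within a genotype, were then compared across mRNAs that carry a UGA selenocysteine codon. Of the 10, 7 lay below the median of 10745 transcripts, which was 1.15 in Nterm/Nterm and 1.17 in wt/wt neurons. The 10 spanned 4.39-fold in Nterm/Nterm and 5.21-fold in wt/wt. SELENOW and GPX1 were lowest in both genotypes and SELENOM and SELENOK highest. Footprints come from coding sequence while RNA reads can come from a whole transcript, so this level also varies with the share of a transcript that is coding, and no test was made between genes.

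SELENOW carried 0.507 footprints per mRNA in Nterm/Nterm and 0.472 in wt/wt, and GPX1 0.510 in Nterm/Nterm and 0.477 in wt/wt. In wt/wt neurons 10.6% of transcripts were lower than SELENOW and 10.7% lower than GPX1. These neighbours did not differ beyond the spread of their libraries, and both lay apart from the next gene, SELENOT, at 0.891 in Nterm/Nterm and 0.859 in wt/wt. In the middle, SELENOF was at 0.934 in Nterm/Nterm and 0.963 in wt/wt, and SELENOP at 0.918 in Nterm/Nterm and 1.08 in wt/wt. GPX4 was at 1.03 in Nterm/Nterm and 0.960 in wt/wt, and TXNRD1 at 1.07 in Nterm/Nterm and 1.13 in wt/wt. Among these, neighbours overlapped except SELENOF and GPX4 in Nterm/Nterm. TXNRD1 lay apart from the next, TXNRD2, at 2.01 in Nterm/Nterm and 1.73 in wt/wt. SELENOK followed at 2.03 in Nterm/Nterm and 1.88 in wt/wt, and SELENOM at 2.22 in Nterm/Nterm and 2.46 in wt/wt, above 94.1% of transcripts in wt/wt, and these 3 overlapped as neighbours. The level of SELENOM rests on few RNA counts, and its libraries ranged from 1.51 to 3.04 in Nterm/Nterm and from 2.03 to 3.13 in wt/wt.

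**Figure D3:**
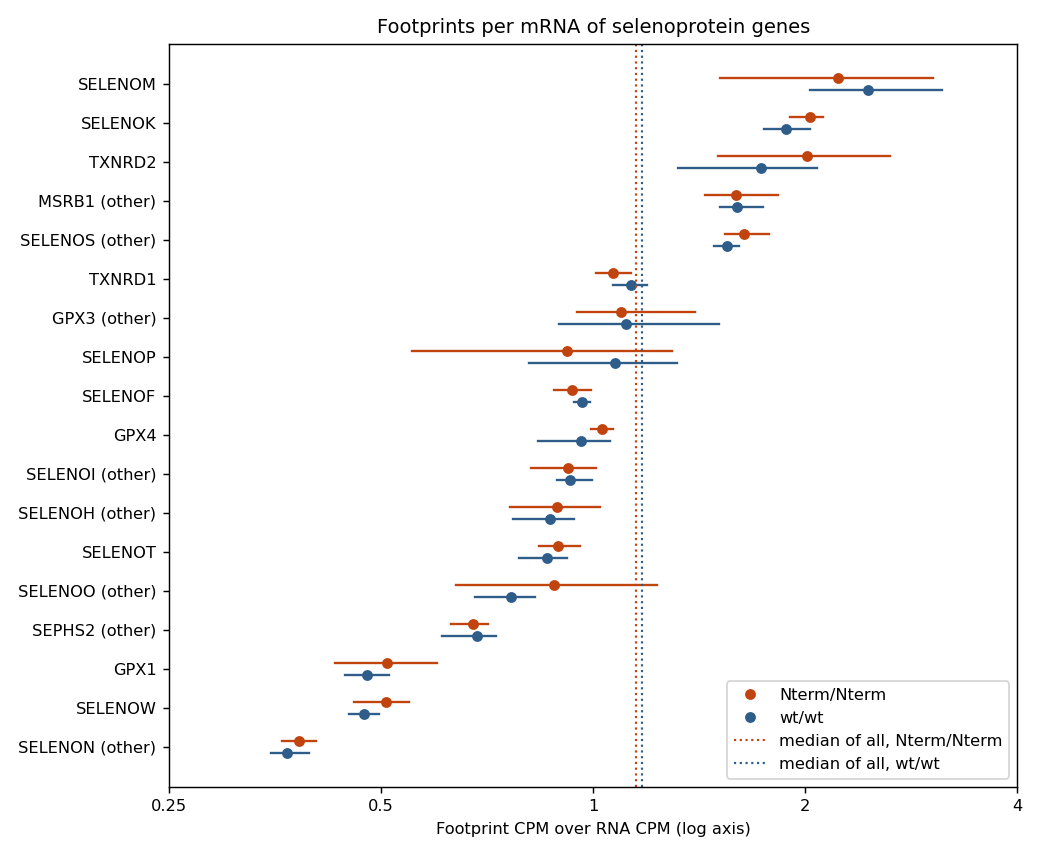
Footprint CPM over RNA CPM, log axis, of 18 selenoprotein genes in Nterm/Nterm and wt/wt neurons. Points are ratios of means and bars run from the lowest footprint over the highest RNA library to the highest over the lowest. Dotted lines are the medians of all transcripts, 1.15 and 1.17, and 13 of the 18 genes lie below them, with SELENON, SELENOW and GPX1 lowest.

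Of 15 further selenoprotein genes listed, 8 had a name in the table. By limma-voom or edgeR, none of these was called in RNA, footprints or efficiency, and by DESeq2 none in RNA or footprints. SELENOI alone of the 8 had an unadjusted p under 0.05 in RNA and in footprints. SELENOI, which makes a phospholipid of membranes, differed by 0.13 ± 0.05 in RNA (adjusted p = 0.0789, and 0.00363 with the replicate block) and by 0.16 ± 0.07 in footprints (adjusted p = 0.130). The 8 ran from -0.11 for SELENOO, a mitochondrial enzyme that attaches AMP to proteins, to 0.20 for GPX3, a secreted peroxidase, in RNA log2 change. In efficiency, the fitted change was positive in 8 of 8, from 0.01 for GPX3 to 0.24 for SELENOO. Of the 17 named genes other than SELENOP it was positive in 14, with a median of 0.09, against 53.7% of all transcripts and a median of 0.01. None of the 17 had an unadjusted p under 0.05 in efficiency by edgeR, and the change of SELENOP was -0.19. Footprints per mRNA were lowest for SELENON, of the endoplasmic reticulum in muscle and other tissues, at 0.383 in Nterm/Nterm and 0.368 in wt/wt. They were highest for SELENOS, a partner of SELENOK, at 1.64 in Nterm/Nterm and 1.55 in wt/wt, and for MSRB1, which repairs oxidised methionine, at 1.59 in Nterm/Nterm and 1.60 in wt/wt. SEPHS2, which makes the selenium donor for selenocysteine, was at 0.676 in Nterm/Nterm and 0.684 in wt/wt.

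The place of the UGA also differs between these mRNAs. It is near the end of the coding sequence in TXNRD1, TXNRD2, SELENOK, SELENOS, SELENOO and SELENOI and earlier in 10 others, a grouping from textbook knowledge made after the levels were seen. SELENOP, with several UGA codons, and SELENON, whose UGA lies late but not next to the end, were left out of it. The places were not read from sequences. Whether other genes, MSRB1 included, should be left out by the rule used for SELENON was not checked. Footprints per mRNA had a median of 1.35 in Nterm/Nterm and 1.34 in wt/wt for the 6 genes with a late UGA. The 10 with an earlier UGA had a median of 0.912 in Nterm/Nterm and 0.914 in wt/wt. Their ranges overlapped, 0.881 to 2.03 against 0.507 to 2.22 in Nterm/Nterm. SELENOM and MSRB1 were high among the genes grouped as earlier. With SELENON, the lowest of the 18, among the late ones, their median would be 1.07 in Nterm/Nterm and 1.13 in wt/wt, so the gap between the medians depends on where SELENON is put. With it among the earlier ones, theirs would be 0.891 in Nterm/Nterm and 0.867 in wt/wt. Any ribosomes lost at a UGA could not be counted.

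Of 28 tested thioredoxin and glutathione genes, 0 rose and 3 fell in RNA, and 0 rose and 4 fell in footprints, with medians of -0.02 and 0.02. Of all transcripts, 7.25% rose and 10.6% fell in RNA, and 4.36% rose and 8.91% fell in footprints, so these counts of decreases are near the general share. TXNIP, the inhibitor of thioredoxin, fell in both, to 244.8 ± 23.9 CPM in Nterm/Nterm against 377.4 ± 12.3 CPM in wt/wt RNA (-0.63 ± 0.06, adjusted p = 0.00013). Its footprint change was -0.41 ± 0.08 (adjusted p = 0.00142). RRM2B, a p53-induced subunit of ribonucleotide reductase, an enzyme that thioredoxin reduces, also fell in both, by 0.30 ± 0.07 in RNA and 0.31 ± 0.08 in footprints (adjusted p = 0.0120 and 0.0126). The peroxidase PRDX6 fell in RNA by 0.30 ± 0.07 (adjusted p = 0.0140), with a footprint change of -0.09 ± 0.08 that was not called. NFE2L2, the activator of antioxidant genes, fell in footprints by 0.37 ± 0.09 (adjusted p = 0.00938), as did RRM2, the S-phase subunit, by 0.34 ± 0.09 (adjusted p = 0.0212). Their RNA changes were in the same direction but missed the threshold. They were -0.20 ± 0.08 for NFE2L2 and -0.34 ± 0.12 for RRM2 (adjusted p = 0.0878 and 0.0776 by edgeR). With the replicate block both were called lower in RNA (adjusted p = 0.00354 and 0.0107). Without wt/wt replicate 1 of their assay, the main-fit calls of RRM2B, PRDX6, NFE2L2 and RRM2 were lost, and the TXNIP calls were not. RRM2B and PRDX6 RNA also lost theirs without wt/wt RNA replicate 2, RRM2B footprints without Nterm/Nterm Ribo replicate 3, and RRM2 without wt/wt Ribo replicate 2 or Nterm/Nterm Ribo replicates 1 or 3. With the replicate block, 2 genes of the list, KEAP1 and SOD2, rose and 6 fell in RNA, when 14.3% of all transcripts rose and 16.4% fell.

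Of 10 tested lipid peroxidation and iron genes, which surround the function of GPX4, 0 rose and 3 fell in RNA, where 10.6% of all transcripts fell, and 0 rose and 1 fell in footprints, where 8.91% fell. ALOX5, a lipoxygenase that oxidises arachidonic acid, fell in both, to 9.45 ± 1.69 CPM in Nterm/Nterm against 16.5 ± 1.42 CPM in wt/wt RNA (-0.82 ± 0.12, adjusted p = 0.00153). Its footprints fell by 0.65 ± 0.14 (adjusted p = 0.00330). The ferritin chains fell in RNA, FTL by 0.25 ± 0.05 (adjusted p = 0.00446) and FTH1 by 0.15 ± 0.04 (adjusted p = 0.0142), and both have many pseudogenes. Neither was called in footprints, where the changes were -0.05 ± 0.08 for FTL and 0.02 ± 0.07 for FTH1. FTH1 lost its RNA call without wt/wt RNA replicate 1 or 2. With the replicate block, ACSL4, GCH1 and TFRC rose, so that 3 rose and 3 fell, against 14.3% and 16.4% of all transcripts.

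Of 14 folding and degradation partners of the endoplasmic reticulum selenoproteins, 1 rose and 1 fell in RNA, where 17.9% of all transcripts were called, and 0 rose and 1 fell in footprints, where 13.3% were. ZDHHC6, the palmitoyl transferase that works with SELENOK, rose by 0.25 ± 0.07 in RNA (adjusted p = 0.0331, and 0.0571 with DESeq2). PDIA3, a disulfide isomerase, fell by 0.13 ± 0.04 in RNA (adjusted p = 0.0326), with a change of 0.00 ± 0.08 in footprints. UGGT2, a folding sensor bound by SELENOF, fell in footprints by 0.46 ± 0.11 (adjusted p = 0.00600), with a change of -0.09 ± 0.08 in RNA. Each of the ZDHHC6 and PDIA3 calls was lost without any 1 of 5 libraries (all but wt/wt RNA replicate 3 for ZDHHC6, all but Nterm/Nterm RNA replicate 2 for PDIA3), and that of UGGT2 without wt/wt Ribo replicate 1. With the replicate block, 2 rose and 5 fell in RNA, against 14.3% and 16.4% of all transcripts, and the decreases included the chaperones HSPA5, CANX and CALR. Of 5 tested relatives with cysteine in place of selenocysteine, GPX8 fell in RNA by 0.41 ± 0.11 and in footprints by 0.30 ± 0.09 (adjusted p = 0.0207 and 0.0260). GPX8 lost its RNA call without Nterm/Nterm RNA replicate 1 or wt/wt RNA replicates 1 or 2. It lost its footprint call without Nterm/Nterm Ribo replicates 1 or 3 or wt/wt Ribo replicates 1 or 2. None of these lists held a gene called in efficiency.

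**Figure D4:**
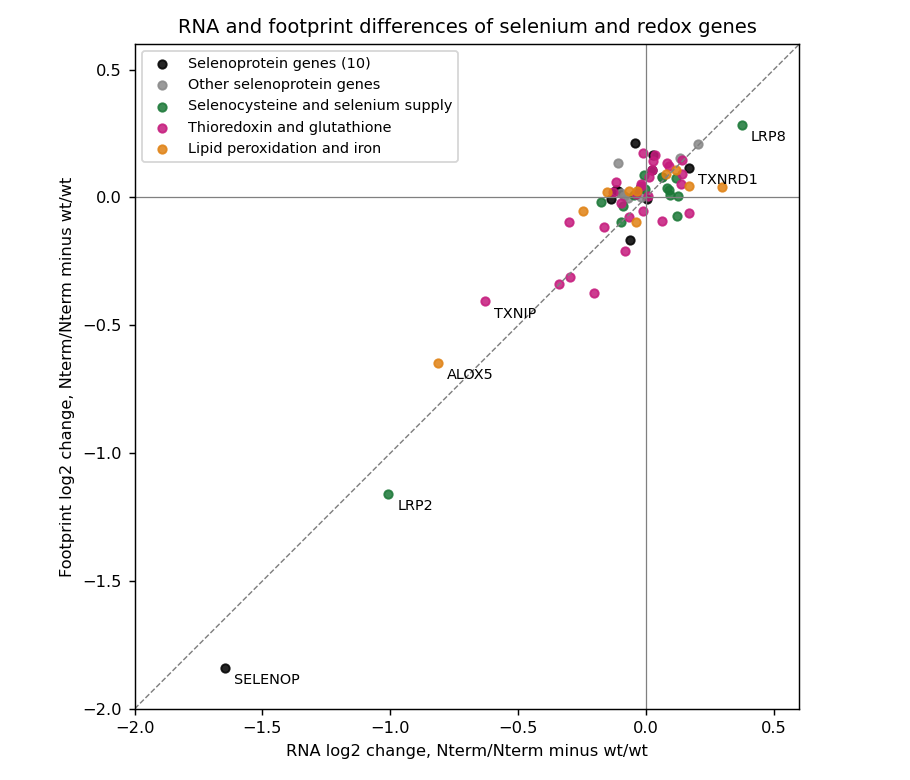
RNA log2 change (x axis) against footprint log2 change (y axis), Nterm/Nterm minus wt/wt, for selenoprotein genes, selenocysteine and selenium supply genes, thioredoxin and glutathione genes, and lipid peroxidation and iron genes. The dashed line marks equal change. SELENOP (-1.65, -1.84) lies farthest out and LRP2 (-1.01, -1.16) next, both near the line.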

How the data were processed

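RNA-seq and Ribo-seq counts of 12 samples in 4 groups of 3 were used, grouped by sample title. The authors deposited whole-number counts, not normalised, per transcript. Their deposited table gives mean ratios of footprints to RNA per genotype, a ratio of these, an unadjusted p-value and gene names. Per the submitters' processing notes, the tools were edgeR, limma, Salmon 1.4.0, Bowtie2 2.3.4.3, UMI-tools 1.0.1 and cutadapt 2.4, and the build was GRCh37. No source used here says how multiply matching reads were treated.

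Counts were fitted with edgeR 4.0.16 in R 4.3.3 (TMM factors, filterByExpr, quasi-likelihood F test, two-sided, Benjamini-Hochberg over all transcripts, threshold 0.05), in RNA, in footprints, and as their interaction. TMM makes changes relative to the other transcripts. SE is the size of the change over the square root of F. The fits were tested on simulated data. Alternatives were DESeq2 1.42.0, its size factors, limma-voom (limma 3.58.1), no filter, a replicate block, the genotype tag, and leaving out each library. CPM divides by the library's total.

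Members, lists and tests were chosen with earlier results of these data known. Named are all selenoprotein genes with a name and, per other list and assay, up to 4 called genes with the largest change. Others named were chosen after their values were seen. Replicate numbers were taken to pair the RNA libraries in the block only, and the main fits do not use them. Deviations from group means of same-numbered RNA libraries correlated between genotypes at 0.236 to 0.495, over the minimum of 0.1. Differently numbered ones ran from -0.399 to 0.209, the highest also over 0.1, so the pairing is not certain. Same-numbered footprint and RNA libraries of 1 genotype correlated at 0.220 to 0.481 in Nterm/Nterm and 0.0301 to 0.271 in wt/wt. Counting error is only part of the spread. Promoters came from RefSeq, GRCh38.p14, with only the 250 bases before each start used.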

Additional observations from a re-analysis of the deposited data

How the results depend on the processing

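Single-gene log2 changes with a test were recomputed under the alternatives other than the genotype tag, which reverses every footprint direction. Of these, 517 kept their direction and side of the threshold, 46 lost a call, 2 gained one and 17 reversed. Of SELENOP changes, which had no test, 39 moved by less than the spread between libraries and 1, its efficiency given above, by more. All 160 recomputed levels of footprints per mRNA moved by less than that spread. With the replicate block 3 of the 9 genes of the list other than SELENOP and 4504 transcripts in all were called in RNA, against 1 and 2624. Leaving out 1 library gave 0 to 1 and 841 to 2851, and in footprints 954 to 2045 transcripts against 1800. In efficiency, 3 transcripts were called, 38 with DESeq2 (of 740 with an adjusted p, none of them a selenoprotein gene named here), 5 with the replicate block, 20 with the replicate block by genotype and number, and 4150 with the genotype tag, among them 1 of these 9 genes. The causes were not tested, except that the tag exchanges the genotypes of the footprint libraries. Same-numbered footprint libraries correlated at 0.0363 to 0.312 between genotypes, not all over 0.1, so the numbers were not taken to pair them; the block gave 2317 footprint calls and changed none of the footprint calls of genes named here. All 17 of these reversals came from values near 0 when 1 library was left out. In RNA these ranged from -0.021 to 0.019 for SELENOF, -0.24 to 0.067 for SELENOM, -0.0039 to 0.054 for SELENOW and -0.16 to 0.041 for TXNRD2. In footprints they ranged from -0.051 to 0.071 for GPX1, -0.039 to 0.015 for SELENOF, -0.031 to 0.071 for SELENOK and -0.049 to 0.057 for GPX4, and in efficiency from -0.23 to 0.076 for SELENOM and -0.042 to 0.013 for SELENOF. Of 10 genes, 7 lay below the median of footprints per mRNA in both genotypes under every alternative run. SELENOP, SELENOM and TXNRD2 had the fewest counts of the 10 genes and the widest intervals in efficiency, and what depth adds to those intervals was not tested.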

Other observations

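Over the 12 libraries, with log2 CPM (pseudocount 0.5) centred within each assay, 5 of 9600 named transcripts of at least 10 CPM in both assays were most like SELENOP by Pearson correlation. They were PRTG (r = 0.990), an adhesion protein of the immunoglobulin superfamily, LGALS3 (r = 0.988), a galectin, SBNO2 (r = 0.987), CLSTN2 (r = 0.986), a calsyntenin of synapses, and XPC (r = 0.985), which recognises DNA damage. Their RNA log2 changes were -0.57, -0.56, -0.29, -0.32 and -0.32 in that order, all smaller in size than that of SELENOP. The 12 points share the genotype difference, and RNA and footprint libraries of one genotype may share cells, so these values describe likeness only.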
